A study of Mus musculus with 18 samples.

Results

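The tripartite motif (TRIM) genes were taken from mouse RNA sequencing of sorted endothelial cells and of a breast cancer line. A gene was a member when its mouse symbol was Trim followed by a number and at most 1 letter. This gave 68 members, all with a line in both deposited tables, out of 55401 lines in the endothelial table and 22612 in the tumour cell table. After lines with a mean value under 10 were set aside, 56 members were tested in the endothelial table, 40 in the tumour cell table, 40 in both and 12 in neither. The study had 18 libraries in 6 groups of 3. BEC normal held blood vessel endothelial cells of the fat pad, BEC tumour those of primary EO771 tumours, HEC normal the endothelial cells of high endothelial venules of lymph nodes, and HEC tumour the same cell type from lymph nodes that the labels call metastases. These cells came from wild-type C57BL/6 females and were sorted as CD45-, CD31-high cells, PNAd+ for HECs and PNAd- for BECs. EO771 vehicle and EO771 12-HETE were cultures of the mouse breast cancer line EO771, a single tumour line, given solvent or 12-HETE, the lipid product of ALOX12, an enzyme that oxidises arachidonic acid. No group carried a gene deletion. The study's legends describe the replicates as independent experiments, while the labels do not say how many mice or cultures stood behind a library. The p-values measure the spread between these libraries.

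TRIM proteins are a large family of ubiquitin ligases. Most carry a RING finger that binds a ubiquitin-conjugating enzyme, then B-box and coiled-coil parts that let them assemble, and a variable tail that picks the substrate. Many are switched on by interferon and act in innate immunity: TRIM25 helps to activate the RNA sensor RIG-I, TRIM21 is an antibody receptor inside the cell, and TRIM5 and TRIM30 proteins act on retroviral capsids or on inflammatory signalling. Others are known for other work, such as TRIM28, which silences transposons through zinc finger proteins, the muscle TRIMs of the sarcomere, and TRIM46, which orders microtubules.

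The question asked of the EO771 cultures was which genes tumour cells alter when they meet the lipid that tumour-associated HECs release. Of the 40 members tested, 16 fell with 12-HETE (40.0%, against 7.79% of all genes tested), and none rose (against 2.38% of all genes tested). The 16 were Trim5, Trim6, Trim12a, Trim12c, Trim14, Trim15, Trim17, Trim21, Trim25, Trim30a, Trim30b, Trim30d, Trim34a, Trim46, Trim56 and Trim69. A gene was called when the DESeq2 adjusted p was under 0.05 and the fold change over 2, that is, over 1 on the log2 scale. In all 16 the vehicle and 12-HETE libraries did not overlap, which only describes genes already picked by this call. The share of all genes without overlap was not counted. The median log2 fold change of the 40 members was -0.69, beside 0.0012 over all 11602 genes tested. For the count of 0 that rose, 6 members were higher at an unadjusted p under 0.05 by DESeq2, and edgeR called 0. In the same comparison all 28 interferon-stimulated reference genes fell, with a median log2 fold change of -5.17. The 16 are described here as the TRIMs that fell with the interferon programme. This split rests on the fall with 12-HETE alone and does not show that each of the 16 answers to interferon. In the same cultures summed epithelial markers were 2868 to 3785 CPM (counts scaled to the same library total) with vehicle and 1930 to 1986 CPM with 12-HETE, and fibroblast and pericyte markers 390 to 614 and 998 to 1037 CPM. Their part in the TRIM changes was not tested.

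**Figure D1:**
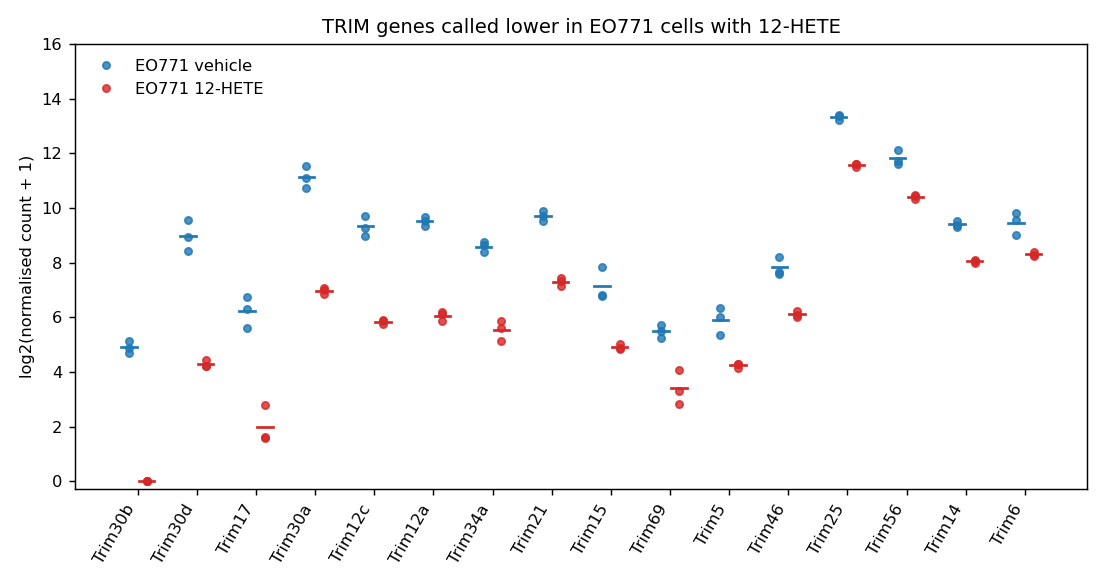
Normalised counts of the 16 members called lower, on a log2(normalised count + 1) axis, with a point for each of the 3 libraries of EO771 vehicle (blue) and EO771 12-HETE (red) and a line at their mean. In every gene the red points lie below the blue ones, and those of Trim30b lie at 0.

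Of the 16 genes, 8 lie side by side on chromosome 7. Between 104218793 and 104507849 (GRCm38), a stretch of 289 kb, the annotation places 10 members with no gap over 200 kb: Trim6, Trim34a, Trim5, Trim12a, Trim34b, Trim12c, Trim30b, Trim30c, Trim30a and Trim30d. All 8 of them that were tested in EO771 fell. These genes include closely related copies (Trim12a and Trim12c, Trim30a to Trim30d, Trim34a and Trim34b), so reads may be split between them and the value of each single copy is uncertain. The only other runs of 3 or more members lie on chromosome 17 (Trim26, Trim15, Trim10, Trim40 and Trim31), where 1 of the 2 tested fell, and on chromosome 8 (Trim75, Trim60 and Trim61), where none reached the test.

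Interferon acts on promoters through the interferon-stimulated response element, the ISRE, here searched as GAAANNGAAA on both strands in RefSeq promoters of build GRCm38.p6, from 250 bases before to 50 bases after a start. RefSeq gave 67 promoters for 53 of the 68 members. The ISRE letters were found in 7 of the 14 genes with a promoter among those that fell in EO771, in 2 of the 18 that were tested and not called lower (Trim2 and Trim26), and in none of the 21 not tested there. Over all genes in the table, 3.99% held these letters. The 7 include copies whose windows are nearly or fully the same, Trim5, Trim12a and Trim12c, and Trim30a and Trim30d. They are therefore not 7 separate sequences. The GAS element, the site of STAT dimers, was searched as TTCNNNGAA, which reads the same on both strands. No member held both motifs, and the GAS was found in 2 of the 14, 1 of the 18 and 3 of the 21, beside 9.55% of all genes. A match is a description of letters and not a site shown to be used.

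The windows below hold the ISRE letters upstream of the start, in 4 cluster genes that fell and, for contrast, in Trim26, which ended just short of the limit. They are written 5′ to 3′ on the strand of the gene, with the match, which lies on the opposite strand, in capitals, and they are shown because the copies share them.
Trim5: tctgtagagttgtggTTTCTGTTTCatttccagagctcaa
Trim12c: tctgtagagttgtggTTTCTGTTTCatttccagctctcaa
Trim30a: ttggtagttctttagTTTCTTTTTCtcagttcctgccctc
Trim30d: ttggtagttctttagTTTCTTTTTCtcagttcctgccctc
Trim26: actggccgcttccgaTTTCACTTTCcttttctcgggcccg
They lie at chr7:104288131-104288170, chr7:104353354-104353393, chr7:104465205-104465244, chr7:104507866-104507905 (minus strand) and chr17:36836971-36837010 (plus strand). The Trim5 and Trim12c windows share 38 of 40 bases, the window of Trim12a equals that of Trim5 in 40 of 40, and the windows of Trim30a and Trim30d are the same in 40 of 40. The matches of Trim12a, Trim21 and Trim34a start 10, 13 and 10 bases after the start that RefSeq gives.

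TRIM30 damps signalling from Toll-like receptors. Trim30a had normalised counts of 2211, 1689 and 2976 with vehicle and of 126, 114 and 132 with 12-HETE. The 12-HETE mean was 18.5-fold lower (log2 fold change -4.21 ± 0.21 SE, adjusted p = 9.41e-87). Every vehicle library was far above every 12-HETE library. Trim30d gave 492, 344 and 746 against 20.5, 17.7 and 17.7 (log2 -4.82 ± 0.33, adjusted p = 4.26e-46). Trim30b was low, with 24.7, 28.7 and 33.8 with vehicle and 0 in all 3 libraries with 12-HETE. Against a floor of 3 counts, taken over the group, this is at least 9.69-fold lower.

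The Trim5 and Trim12 genes, the mouse relatives of the retroviral restriction factor TRIM5, changed by unequal amounts. Trim12a gave 654, 726 and 818 with vehicle and 68.8, 57.2 and 71.8 with 12-HETE (log2 -3.47 ± 0.18, adjusted p = 1.89e-85). Trim12c gave 621, 505 and 838 against 56.5, 53.2 and 59.0 (log2 -3.54 ± 0.23, adjusted p = 4.88e-52). The 12-HETE means of this pair were 11.1-fold and 11.6-fold lower. Trim5 gave 63.3, 40.1 and 80.9 against 16.4, 18.7 and 18.7 (log2 -1.77 ± 0.39, adjusted p = 3.34e-05). Trim34a gave 394, 333 and 426 against 47.2, 57.2 and 34.4 (log2 -3.05 ± 0.22, adjusted p = 5.47e-42), with 23.5% of its exon length under a gene on the other strand.

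Among the sensors and signalling ligases outside the cluster, Trim25 came next after Trim28 per exon length with vehicle. It gave 10506, 9469.8 and 10818 with vehicle and 3129, 2877 and 3122 with 12-HETE, 3.37-fold lower (log2 -1.75 ± 0.09, adjusted p = 2.03e-76). Its partner Ddx58, which encodes RIG-I, fell as well (log2 -3.03 ± 0.13, adjusted p = 1.75e-125), 1 of the 4 that fell among 14 tested RNA and DNA sensing partners. Trim21 gave 826, 742 and 955 against 174, 161 and 139.7 (log2 -2.41 ± 0.16, adjusted p = 3.34e-51). Trim56, a ligase of the STING and double-stranded RNA pathways, gave 3149, 3331 and 4449.9 against 1287, 1378 and 1409 (log2 -1.42 ± 0.15, adjusted p = 1.99e-20). Trim14, a mitochondrial adaptor of RIG-I signalling that lacks a RING, gave 655, 742 and 629.6 against 275, 253 and 263 (log2 -1.36 ± 0.13, adjusted p = 2.53e-24), and 38.0% of its exon length lies under other genes, the sialic acid synthase Nans among them.

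Of 12 tested members on the list of known interferon-induced TRIMs, 11 fell, with a median log2 fold change of -2.73. The exception was Trim26, a ligase of the MHC region, at 2067, 1932 and 2114 against 1053, 1057 and 1034 (log2 -0.96 ± 0.09, adjusted p = 7.82e-26): its groups did not overlap, but the fold stayed below 2. The 5 that fell without being on that list were Trim6, Trim15, Trim17, Trim46 and Trim69. Trim6, a ligase that makes free ubiquitin chains for the kinase IKKε, gave 752, 512 and 891 against 301, 308 and 338 (log2 -1.19 ± 0.20, adjusted p = 5.58e-08). Trim15, its gene in the MHC region, gave 113, 228 and 107 against 27.7, 31.5 and 28.5 (log2 -2.35 ± 0.36, adjusted p = 5.55e-10). Vehicle replicate 2 stood above the other vehicle libraries for Trim14, Trim15, Trim17 and Trim46. It stood below them for Trim5, Trim6, Trim12c, Trim21, Trim25, Trim30a, Trim30d, Trim34a and Trim69. None of the 16 lost its call when any 1 library was left out.

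Trim17, known from neurons and testis, gave 47.5, 107 and 78.8 with vehicle and 2.05, 5.91 and 1.97 with 12-HETE (log2 -4.55 ± 0.61, adjusted p = 1.19e-12). Its 12-HETE libraries were near the floor, and 27.7% of its exon length is shared with other genes, including Hist3h2a on the same strand. Trim46, the microtubule-organising member, gave 203, 296 and 192 against 73.9, 63.1 and 66.9 (log2 -1.76 ± 0.24, adjusted p = 1.93e-12). Trim69, which also binds microtubules, gave 44.5, 36.3 and 52.2 against 6.16, 8.87 and 15.7 (log2 -2.11 ± 0.46, adjusted p = 2.59e-05).

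The call limit separated close values. Trim6 at -1.19 was the last member inside it, while Trim7 at -0.99, Trim26 at -0.96 and Trim47 at -0.91 lay just outside. The 24 tested members that were not called lower had a median log2 fold change of -0.19 and ran from -0.99 to 0.60. Towards the upper end were Trim2 (0.60 ± 0.20), an NHL-repeat ligase of axons, and Trim44 (0.43 ± 0.15). Trim28 passed the adjusted p upward too, as did Trim23 and Trim37, which are given for completeness. None of these reached the fold limit.

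None of the chromatin members was called. Trim28 was the most abundant TRIM gene per exon length in all 6 groups. In EO771 it gave 9047, 8778 and 8628 with vehicle and 10649.5, 10444 and 10483 with 12-HETE (log2 0.26 ± 0.07, adjusted p = 7.47e-04), so the groups did not overlap but differed by 1.19-fold. None of the 3 tested TIF1 members, Trim24, Trim28 and Trim33, was called. Of the 8 silencing partners of TRIM28, none was called, but 5 (Cbx1, Cbx3, Cbx5, Dnmt1 and Uhrf1) passed the adjusted p upward and none passed it downward, with a median log2 fold change of 0.44 over the 8. Cbx3, which encodes a heterochromatin protein, had 887 normalised counts with vehicle and 1773 with 12-HETE and ended just short of the fold limit (log2 1.00 ± 0.15, adjusted p = 1.80e-10). None of the 4 NHL-repeat members, none of the 5 membrane, ARF, MATH and filamin members and neither Trim16 nor Trim44, from a list of members without a RING, was called. Trim14, which lacks a RING too but is not on that list, fell. The PML gene, a TRIM protein under another symbol and a known interferon target, fell (4000.2 against 1492 normalised counts, log2 -1.42 ± 0.08, adjusted p = 3.25e-70), while Mid1 was not called (log2 -0.14 ± 0.12, adjusted p = 0.340).

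Trim60 and Trim61 were too low to be tested. Trim61 gave 1.98, 2.87 and 4.09 normalised counts with vehicle and 19.5, 12.8 and 13.8 with 12-HETE, and Trim60 gave 0.99, 0 and 2.05 against 11.3, 7.88 and 9.84. The annotated exons of these neighbours overlap in part, so reads may be shared. Every 12-HETE library exceeded every vehicle library in both genes. With no filter on low values both were called higher. In that fit Trim34b and Trim66, also too low for the main test, were called lower. Trim61 was also called higher when any 1 vehicle library was left out, since its mean then passed the filter.

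The libraries themselves were checked once against markers. Summed endothelial markers ran from 2634 to 3909 CPM in the endothelial groups and from 65.6 to 112 in EO771, and summed epithelial markers from 1930 to 3785 CPM in EO771. High endothelial markers summed to 975 to 1331 CPM in HEC normal, 2225 to 3057 in HEC tumour and 10.7 to 29.1 in BECs, where Glycam1 and Chst4 were at 0. Ccl21a and Chst2 were at 0 in every HEC library. BEC tumour stood apart by other cells' genes: myeloid markers summed to 1580 to 2158 CPM, against 114 to 137 in BEC normal, 486 to 510 in HEC normal and 357 to 375 in HEC tumour, and all 10 of them exceeded 1 CPM. T cell markers summed to 28.8 to 47.5 CPM there against 4.11 to 4.64 in BEC normal, and epithelial markers to 8.98 to 77.6 CPM against 1.51 to 2.94. Library totals ran from 56.4 M to 79.4 M units in the endothelial table, where about 3.7 units stand for 1 read, and from 17.3 M to 18.6 M counts in EO771. Because these are bulk libraries, fewer cells of a type and less RNA per cell cannot be told apart.

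In HECs the comparison asked what a tumour-bearing lymph node changes in the same cell type. Of the 56 members tested, 7 fell in HEC tumour (12.5%, against 3.21% of all genes tested): Trim12a, Trim12c, Trim14, Trim30a, Trim30d, Trim34a and Trim34b. 3 members rose, Trim9, Trim66 and Trim68 (5.36%, against 4.58% of all genes tested). All 7 that fell are on the list of known interferon-induced TRIMs, of which 14 were tested, with a median log2 fold change of -1.20 beside -0.12 over all 56 members. Of the interferon-stimulated reference genes, 24 of 28 fell, with a median of -1.44. Cell markers moved in the same comparison: HEC tumour had the higher sum of high endothelial markers, without overlap, and lower sums of myeloid markers and of B cell markers (4.22 to 4.63 CPM, against 9.72 to 10.5 in HEC normal). Their part in the TRIM changes was not tested.

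The genes of the chromosome 7 cluster supplied 6 of the 7. Trim30a gave 14883, 13744 and 14652 in HEC normal and 5395, 5224 and 5257 in HEC tumour, 2.73-fold lower (log2 -1.45 ± 0.11, adjusted p = 9.53e-37). Trim30d gave 6865, 5917 and 5843 against 2063, 2390.1 and 2577 (log2 -1.41 ± 0.14, adjusted p = 8.59e-23). Trim34a gave 3747, 3600.0 and 3808 against 1347, 1444 and 1333 (log2 -1.43 ± 0.06, adjusted p = 5.42e-111). In each of these genes all 3 tumour libraries lay below all 3 normal ones. Trim12a gave 2895, 2630.0 and 3266 against 1509, 1195 and 1358 (log2 -1.11 ± 0.11, adjusted p = 1.20e-21), and Trim12c gave 3432, 2762 and 2443 against 999, 1033 and 1508 (log2 -1.29 ± 0.23, adjusted p = 3.62e-07).

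The other 2 that fell were scarce in HECs. Trim34b gave 209, 159.8 and 135 against 55.4, 42.4 and 99.6 (log2 -1.35 ± 0.41, adjusted p = 0.00368). Trim14 gave 53.8, 111 and 86.0 against 4.62, 3.95 and 29.9 (log2 -2.71 ± 0.60, adjusted p = 4.33e-05). HEC tumour replicate 3 supplied most of the Trim14 signal in its group, the means of which are near the floor of 11.1 units, and the overlap with Nans applies here too. Trim25 ended just outside the call, at 19094, 18388 and 18955 against 9737, 9594 and 8995 (log2 -0.99 ± 0.07, adjusted p = 3.51e-47). It passed the fold limit by edgeR, with TMM scaling, and without HEC normal replicate 2 or HEC tumour replicate 1 or 2.

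The 16 members that had fallen in EO771 were then read in HECs. All 16 were tested and 6 fell (37.5%): Trim12a, Trim12c, Trim14, Trim30a, Trim30d and Trim34a. Of the 7 that fell in HECs these were 85.7%, and the other, Trim34b, was too low in EO771 to be tested. The median log2 fold change in HECs was -0.69 over the 16 and 0.04 over the 24 that were tested and not called lower in EO771, of which none fell and 1, Trim68, rose. The 16 were not uniform, as 10 had values below 0 and 6 above it. Trim56 gave 4381, 4403 and 4589.7 in HEC normal and 4635, 4470.2 and 4633 in HEC tumour (log2 0.04 ± 0.12, adjusted p = 0.861), and Trim6 gave 1055, 1111 and 1092 against 1085, 1222 and 1204 (log2 0.11 ± 0.13, adjusted p = 0.571). Trim21 lay between, with 1839.8, 1535 and 1767 against 1056, 1087 and 981 (log2 -0.72 ± 0.23, adjusted p = 0.00621). Trim5, Trim15, Trim17, Trim30b, Trim46 and Trim69 did not pass the adjusted p in HECs.

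**Figure D2:**
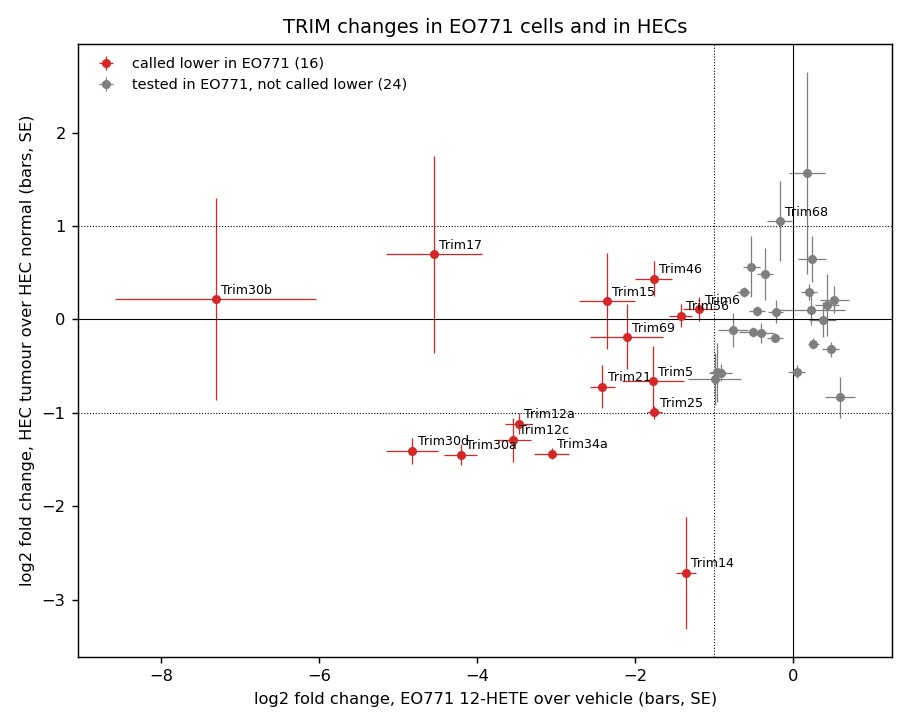
Log2 fold change with 12-HETE in EO771 cells (x axis) against log2 fold change in HEC tumour over HEC normal (y axis) for the 40 members tested in both, with bars of 1 SE and dotted lines at the fold limit. The 16 members called lower in EO771 are red and the other 24 grey. 6 of the red points lie below -1 on the y axis and no grey point does. Trim30b has no 12-HETE reads, so its place on the x axis is a fitted value and not a bound.

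The 3 members that rose in HEC tumour were low. Trim66, a TIF1 member of testis and neurons, gave 19.3, 61.1 and 43.0 against 174, 121 and 174 (log2 1.93 ± 0.59, adjusted p = 0.00486) and kept its call with each library left out. Trim9, a brain ligase with a COS box, gave 8.11, 4.07 and 11.5 against 23.1, 22.7 and 19.9 (log2 1.47 ± 0.52, adjusted p = 0.0170), and lost it without HEC normal replicate 2 or HEC tumour replicate 1 or 2. Trim68, a ligase linked to the androgen receptor, gave 73.0, 68.2 and 33.4 against 147, 51.3 and 164 (log2 1.05 ± 0.43, adjusted p = 0.0415). Its groups overlapped, and the call was lost by edgeR and without HEC normal replicate 2 or 3 or HEC tumour replicate 1 or 3.

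In BECs the tumour comparison sets primary tumour vessels against those of the fat pad. 6 of 56 members rose (10.7%, against 12.4% of all genes tested) and 6 fell (10.7%, against 10.8% of all genes tested), so both shares were close to the background. Trim7, Trim10, Trim40, Trim43a, Trim54 and Trim63 rose, and Trim14, Trim34b, Trim44, Trim46, Trim68 and Trim71 fell. Of the 16 members that had fallen in EO771, only Trim14 and Trim46 fell in BECs, none rose, and the median log2 fold change was 0.22. Of the 28 interferon reference genes 15 fell and 2 rose, with a median of -1.28, and of the 14 interferon-induced TRIMs tested 2 fell and none rose, with a median of 0.09. Myeloid, T cell and epithelial markers were higher in BEC tumour, the last with a wide spread between libraries, and fibroblast and pericyte markers were lower. Their part in these values was not tested.

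**Figure D3:**
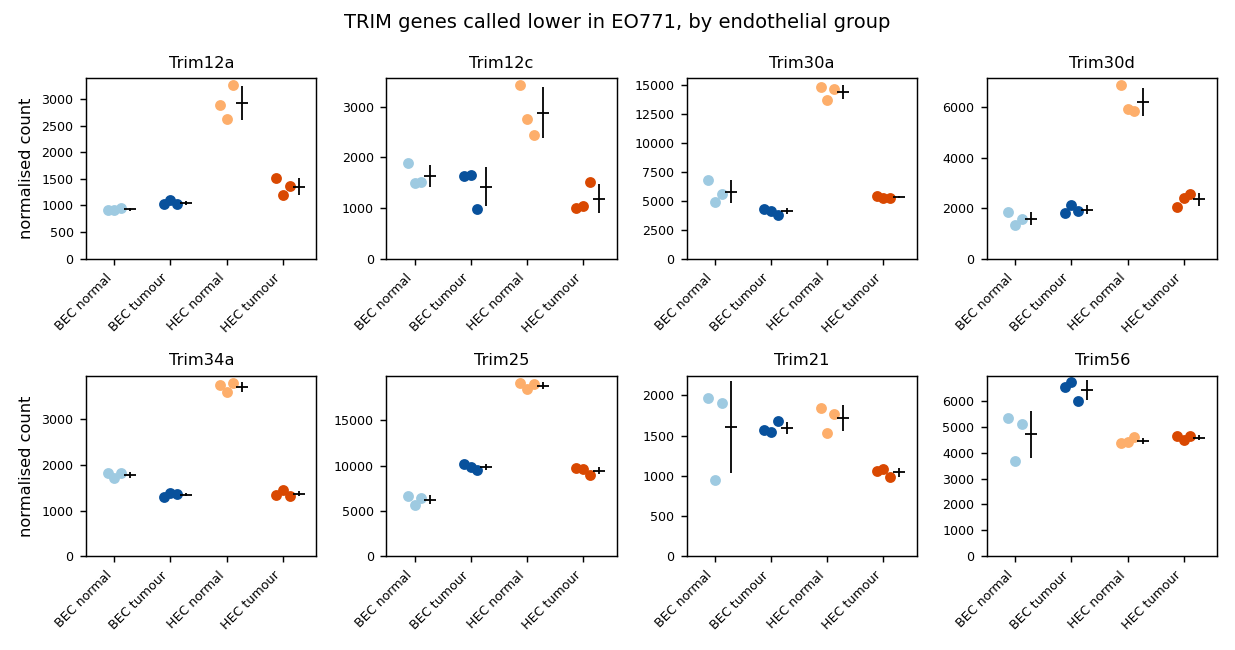
Normalised counts of 8 members called lower in EO771, in the 4 endothelial groups, with a point for each of the 3 libraries and a bar for the mean ± SD. HEC normal is the highest group in the panels of Trim12a, Trim12c, Trim30a, Trim30d, Trim34a and Trim25, HEC tumour lies lower in these, and Trim56 shows no such step.

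The cluster genes were also read in BECs. Trim30d gave 1837, 1326 and 1558 in BEC normal and 1809, 2127 and 1874 in BEC tumour (log2 0.30 ± 0.14, adjusted p = 0.0575), and Trim12a gave 905, 919 and 943 against 1032, 1091 and 1023 (log2 0.19 ± 0.11, adjusted p = 0.164). Trim30a and Trim34a passed the adjusted p below the fold limit, at log2 -0.50 ± 0.11 and -0.40 ± 0.06. Trim34b was the cluster gene that fell, with 203, 322 and 324 in BEC normal and 117, 65.1 and 60.2 in BEC tumour (log2 -1.81 ± 0.40, adjusted p = 1.99e-05). Trim6, also in the cluster, went the other way, with 220, 258 and 234 in BEC normal and 482, 373 and 501 in BEC tumour. It passed the adjusted p upward below the fold limit, and was called higher without BEC tumour replicate 2. Outside the cluster, Trim25 passed the adjusted p upward as well, with 6614, 5683 and 6464 in BEC normal and 10182, 9848 and 9545 in BEC tumour (log2 0.66 ± 0.07, adjusted p = 3.81e-21).

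Trim44, a member without a RING that carries a zinc finger of the kind found in ubiquitin proteases, ranged widely in endothelium. It gave 9159, 6918 and 7972 in BEC normal, 1020.3, 1089.6 and 934 in BEC tumour, 91.3, 51.9 and 76.4 in HEC normal and 125, 86.8 and 33.2 in HEC tumour. The BEC groups did not overlap with each other or with HECs, while the 2 HEC groups did overlap. BEC tumour was 7.90-fold below BEC normal (log2 -2.98 ± 0.31, adjusted p = 5.37e-21). HEC normal was 109-fold below BEC normal (log2 -6.77 ± 0.32, adjusted p = 4.17e-96) and HEC tumour 12.4-fold below BEC tumour (log2 -3.64 ± 0.32, adjusted p = 4.49e-28). Summed fibroblast and pericyte markers were also highest in BEC normal (824 to 833 CPM), then BEC tumour (78.3 to 109). They were lower in HEC normal (25.2 to 26.3) and lowest in HEC tumour (10.7 to 12.0), whereas Trim44 overlapped between the 2 HEC groups. The part of these markers in the level of Trim44 was not tested. In EO771, whose table was normalised separately, Trim44 gave 3613, 2726 and 4162 with vehicle and ranked among the 5 most abundant members per exon length, as it did in BEC normal.

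Trim46 and Trim68 had the same order in BECs as Trim44. Trim46 gave 708, 652 and 733 in BEC normal and 214, 243 and 232 in BEC tumour (log2 -1.60 ± 0.18, adjusted p = 2.16e-17). Trim68 gave 504, 384 and 572 against 221, 186 and 229 (log2 -1.20 ± 0.41, adjusted p = 0.00811), a call lost without BEC normal replicate 3. Trim14 gave 316, 554 and 329 against 123, 129 and 145 (log2 -1.60 ± 0.55, adjusted p = 0.00802), and lost its call without BEC normal replicate 2, its highest library. Trim71, an NHL-repeat ligase of embryonic stem cells, gave 29.1, 23.5 and 11.2 against 0, 0 and 10.5 (adjusted p = 0.0416). BEC tumour held about 3 reads of it in all, so the 6.51-fold difference had a 95% counting interval of 1.88 to 34.7 (exact binomial). It lost its call by edgeR and without any 1 of BEC normal replicates 1, 2 and 3 or BEC tumour replicates 1 and 2.

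The muscle members were measured in vessels. Trim54, a microtubule-binding ligase of the sarcomere, gave 677, 599 and 637 in BEC normal and 2671, 2931 and 2814 in BEC tumour, 4.40-fold higher (log2 2.13 ± 0.08, adjusted p = 1.79e-174), and was among the 5 most abundant members per exon length in BEC tumour, HEC normal and HEC tumour. It gave 3649, 3969 and 3659.9 in HEC normal and 3272, 3189 and 3141 in HEC tumour, and 0 in all 6 EO771 libraries. Skeletal muscle markers summed to 3.27 to 3.56 CPM in HEC normal, with Ckm, Myh4 and Pvalb at 0, to 2.63 to 4.15 CPM in BEC normal and to 17.2 to 25.7 CPM in BEC tumour. A gene on the other strand covers 26.6% of the exon length of Trim54, and whether counting used the strand is not stated in the sources used here. Trim63, the muscle atrophy ligase MuRF1, gave 0, 8.24 and 0 in BEC normal and 65.9, 111 and 84.6 in BEC tumour (adjusted p = 4.88e-07). With about 2 reads in BEC normal, the ratio was 34.8 with a 95% counting interval of 9.33 to 293. In BEC tumour Trim63 and the muscle marker sum both lay above BEC normal. In HEC normal Trim63 gave 8.11, 22.4 and 24.8 and was called above BEC normal too, where the muscle sums overlap. That ratio was 7.39, with a 95% counting interval of 1.72 to 66.6, and the call was lost in the fit of only those groups. All 3 striated muscle members tested, Trim54, Trim63 and Trim72, were called in this direction. The part of muscle RNA in the Trim63 values was not tested.

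Trim7, a ligase that targets viral membrane proteins and glycogenin, gave 119, 168 and 301 against 577, 731 and 672 (log2 1.75 ± 0.28, adjusted p = 2.62e-09). The other 3 that rose in BEC tumour rest on few reads. Trim40 gave 0 in all 3 BEC normal libraries and 43.6, 37.2 and 47.9 in BEC tumour, which is at least 3.87-fold higher against the floor of 11.1 units, taken over the group. Trim10, an erythroid ligase, gave 0 in all 3 and then 13.9, 3.38 and 10.5, under that floor on average, so no fold is given. Trim43a gave 0, 4.71 and 4.06, about 2 reads in all, against 9.28, 15.2 and 16.6 (adjusted p = 0.0325), a ratio of 5.66 with a 95% counting interval of 1.28 to 51.7, and lost its call by edgeR and without BEC normal replicate 1 or BEC tumour replicate 2 or 3.

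Between the cell types without tumour, HEC normal exceeded BEC normal in 18 of 56 members (32.1%, against 17.1% of all genes tested) and lay below it in 5 (8.93%, against 15.1% of all genes tested). Cell type and organ cannot be told apart, since BECs came from fat pad and HECs from lymph nodes, and this comparison shares its HEC normal libraries with the HEC tumour comparison. Summed myeloid markers were 486 to 510 CPM in HEC normal and 114 to 137 in BEC normal, and B cell markers 9.72 to 10.5 and 2.14 to 3.54. Fibroblast and pericyte markers were 25.2 to 26.3 CPM in HEC normal and 824 to 833 in BEC normal. The part of these markers in the TRIM differences was not tested. Of the 10 members of the chromosome 7 cluster, 8 were higher in HEC normal, and of the 16 that fell in EO771, 10 were higher and 2 (Trim14 and Trim46) lower, with a median of 1.31. Trim5 lost its call without BEC normal replicate 2, Trim30b without HEC normal replicate 3, and Trim72, outside the cluster, without any 1 of BEC normal replicates 1 and 2 and HEC normal replicates 1, 2 and 3. Of the 28 interferon reference genes 6 were higher and 1 lower, with a median of 0.40.

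Trim30d was 3.94-fold higher in HEC normal (log2 1.98 ± 0.14, adjusted p = 2.06e-45), Trim12a 3.18-fold (log2 1.67 ± 0.11, adjusted p = 4.17e-48), Trim25 3.01-fold (log2 1.59 ± 0.07, adjusted p = 1.43e-120) and Trim30a 2.49-fold (log2 1.32 ± 0.11, adjusted p = 1.48e-31). Per exon length, Trim30a and Trim25 came next after Trim28 in HEC normal, with 3509 and 3269 normalised counts per kb against 5563 for Trim28, and both were outside the top 5 in HEC tumour. Trim30c, at 0, 0 and 8.13 in BEC normal, at 131, 146 and 100.3 in HEC normal (adjusted p = 2.22e-06) and in HEC tumour at 4.62, 40.5 and 68.6, had under 1 normalised count in each EO771 library. BEC normal held about 2 reads of it, so its ratio of 50.3 in HEC normal had a 95% counting interval of 13.6 to 421. Trim6 was 4.58-fold higher (log2 2.20 ± 0.14, adjusted p = 1.25e-55), Trim54 5.90-fold (log2 2.56 ± 0.08, adjusted p = 6.54e-252) and Trim7 4.49-fold (log2 2.17 ± 0.28, adjusted p = 6.62e-14).

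Fewer members were called between the tumour groups. Of 56 members, 5 were higher in HEC tumour than in BEC tumour (8.93%, against 11.2% of all genes tested) and 4 lower (7.14%, against 10.7% of all genes tested). Trim6, Trim10, Trim15, Trim69 and Trim71 were higher and Trim9, Trim14, Trim44 and Trim63 lower. Trim71 lost its call without HEC tumour replicate 2, and Trim9 without BEC tumour replicate 1 or 2 or HEC tumour replicate 2 or 3. None of the 14 interferon-induced TRIMs tested was called higher, and the median was 0.01. Trim6 kept its difference (482, 373 and 501 in BEC tumour, 1085, 1222 and 1204 in HEC tumour, log2 1.37 ± 0.13, adjusted p = 5.03e-24), as did Trim69 (20.4, 27.1 and 24.4 against 114, 77.0 and 87.4, log2 1.95 ± 0.37, adjusted p = 7.67e-07) and Trim15 (31.5, 13.5 and 20.1 against 157, 116 and 184, log2 2.81 ± 0.54, adjusted p = 6.34e-07). Trim25 had 10182, 9848 and 9545 in BEC tumour and 9737, 9594 and 8995 in HEC tumour (log2 -0.06 ± 0.07, adjusted p = 0.454).

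**Figure D4:**
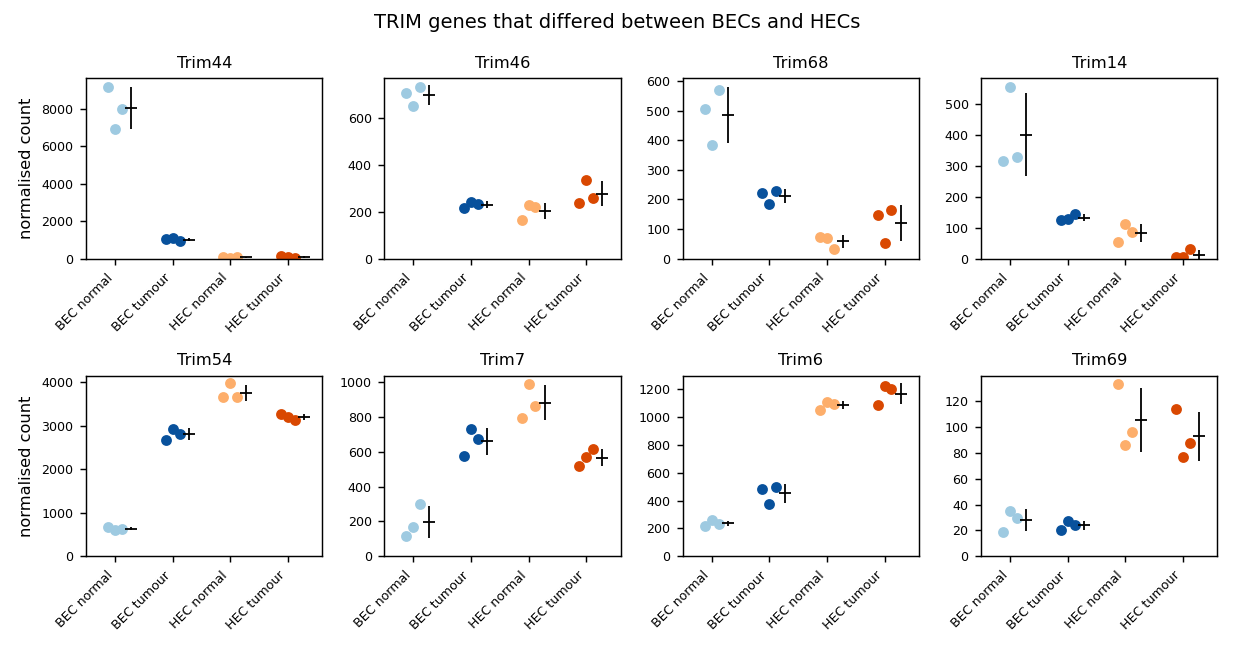
Normalised counts of 8 members in the 4 endothelial groups, with a point for each of the 3 libraries and a bar for the mean ± SD. Trim44, Trim46, Trim68 and Trim14 are highest in BEC normal, Trim54 and Trim7 are lowest there, and Trim6 and Trim69 are higher in both HEC groups than in both BEC groups.

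The difference between the tumour changes of HECs and BECs was tested as an interaction in the same fit. It was negative for 12 of 56 members (21.4%, against 12.1% of all genes tested) and positive for 5 (8.93%, against 11.2% of all genes tested). Among the negative ones were Trim12a (-1.30 ± 0.16, adjusted p = 5.48e-15), Trim12c (-1.09 ± 0.33, adjusted p = 0.00298), Trim30d (-1.70 ± 0.20, adjusted p = 3.79e-17), Trim34a (-1.04 ± 0.09, adjusted p = 2.85e-29) and Trim25 (-1.65 ± 0.10, adjusted p = 4.63e-65), whose tumour change in HECs lay below that in BECs. The call of Trim12c was lost without BEC tumour replicate 1 or 2, HEC normal replicate 1 or HEC tumour replicate 1, that of Trim30c without HEC normal replicate 2, that of Trim66 without BEC normal replicate 3, and that of Trim71 without BEC normal replicate 1 or 2, HEC normal replicate 1 or HEC tumour replicate 2. Of the 28 interferon reference genes, 7 had a negative interaction and none a positive one, with a median of -0.52. The most negative were Rsad2, the gene of the antiviral enzyme viperin (2.24 in BECs and -2.02 in HECs), and Ifit2 (1.75 and -1.39), both called in opposite directions in the 2 cell types.

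**Figure D5:**
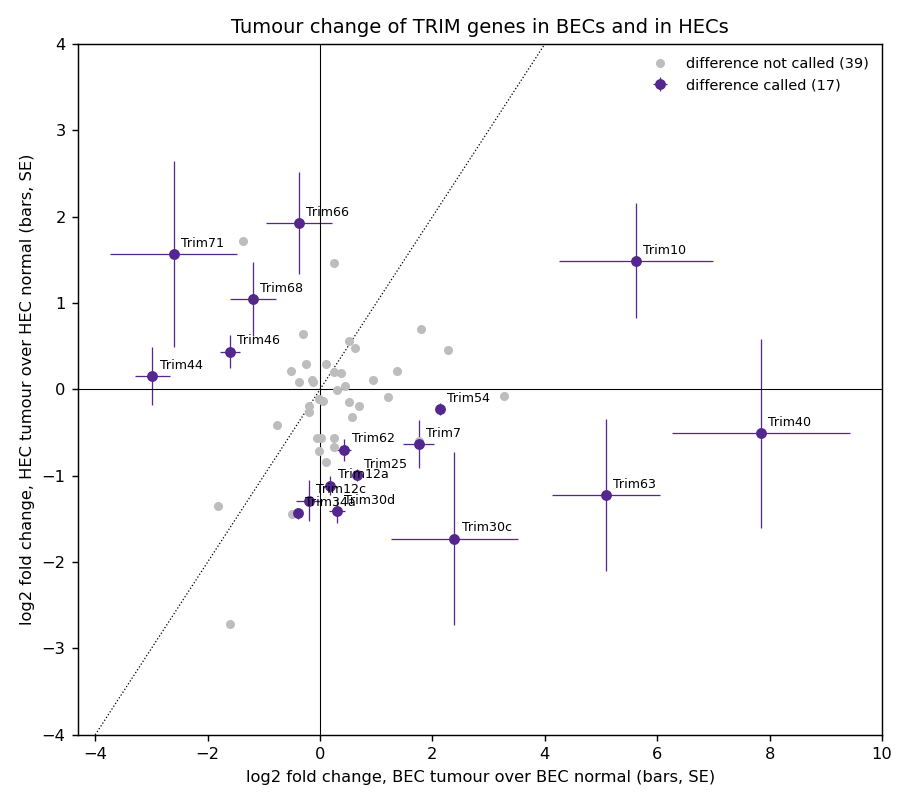
Log2 fold change with tumour in BECs (x axis) against that in HECs (y axis) for the 56 members tested, with bars of 1 SE on the 17 whose difference was called (purple) and grey points for the other 39. The dotted line marks equal change. Trim12a, Trim12c, Trim25, Trim30d and Trim34a lie below it near the middle, and Trim44, Trim46, Trim66, Trim68 and Trim71 above it. Trim10 and Trim40 had 0 in every BEC normal library, and Trim30c, Trim43a, Trim63, Trim71 and Trim72 had 1 to 3 reads in a BEC group, so their x values are fitted and not bounds.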

How the data were processed

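RNA of 12 endothelial and 6 EO771 libraries was sequenced. Following the study's methods, the authors aligned reads with STAR to GRCm38 and counted them per gene with featureCounts. The labels and methods name different library kits, and the strand setting of counting is not given in the sources used here. The EO771 table deposited by the authors holds raw counts per gene. The deposited endothelial table was treated as estimated counts: its whole numbers come in steps of about 3.7 units for 1 read, for a reason not given in the sources used here, so DESeq2 sees more apparent depth than there was, and the values divided by the step were run as an alternative. Totals per library ran from 15.2 M to 21.4 M reads after that division, and from 17.3 M to 18.6 M in EO771. These counts are not molecules, so floors of 3 counts (11.1 units) cover counting error only.

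Genes with a mean value of at least 10 were tested with the Wald test of DESeq2 1.42.0 in R 4.3.3, two-sided, with Benjamini-Hochberg adjustment over all genes of a table. All 12 endothelial libraries shared 1 fit with group as its only term, and the EO771 libraries had their own. Calls needed an adjusted p under 0.05 and a fold over 2. Normalised counts are values divided by DESeq2 size factors, and CPM values are scaled to the library total. The 2 tables were normalised separately, so no level was compared between them. Of the endothelial identifiers, 260 matched no symbol, and 33 symbols of the EO771 table stood on more than 1 line. Replicates were compared, and none was a copy of another. Their distance was taken as a chi-square per gene, which sets the difference between libraries against counting error. It was 2.33 to 2.64 within EO771 12-HETE, against 15.7 to 43.7 within EO771 vehicle. Within the endothelial groups it was 12.3 to 25.2. The 12-HETE libraries thus differed far less than the others, and the labels do not say whether they were separate cultures. In EO771 the deviations from group means of libraries with the same number correlated at 0.113, 0.173 and 0.328. No label says that these numbers pair the libraries. The fit behind the EO771 values did not pair them, and a replicate block was run as an alternative. Scripts were tested on simulated data.

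The members, gene lists and split were chosen with earlier results of these data known. Members were named when called in EO771 or in the HEC tumour comparison, when among the 6 most changed of the called members in each direction elsewhere, when among the 5 highest per exon length in a group, when on the lists of interferon-induced, TIF1, striated muscle, COS-box or NHL members, or as neighbours in a cluster of copies. Alternatives were edgeR 4.0.16, TMM scaling, other filters and call rules, a replicate block, fits of only the groups compared, and leaving out each library.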

Additional observations from a re-analysis of the deposited data

Results flagged for a closer look

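The tumour change differed between HECs and BECs, by the interaction term of the DESeq2 fit, in 17 members. The log2 difference, HEC change less BEC change, was negative for Trim7 (-2.39), Trim10 (-4.13), Trim12a (-1.30), Trim12c (-1.09), Trim25 (-1.65), Trim30c (-4.12), Trim30d (-1.70), Trim34a (-1.04), Trim40 (-8.35), Trim54 (-2.37), Trim62 (-1.13) and Trim63 (-6.31). It was positive for Trim44 (3.14), Trim46 (2.04), Trim66 (2.30), Trim68 (2.25) and Trim71 (4.18). Trim62 was outside the naming rule and is given for completeness. In Trim10 and Trim40 every BEC normal library was at 0, so these values are fitted and are not bounds. Those of Trim63, Trim30c and Trim71 are fitted as well, since Trim63 and Trim30c had about 2 reads in all of BEC normal and Trim71 about 3 in all of BEC tumour. Over the alternatives they ran from -10.18 to -5.67, from -7.96 to -3.50 and from 3.59 to 8.60. The HEC change rests on the HEC libraries and the BEC change on the BEC libraries, with the spread estimated over all 12. The difference reuses the libraries of both comparisons and is not independent of them.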

How the results depend on the processing

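Called members had 1306 values in the fits that tested them under an alternative, of which 1218 kept direction and call, 88 lost the call and 0 changed direction. A further 52 calls were lost because the member fell under the filter. Counting both, 9 of 16 calls held under every alternative in EO771, 2 of 10 in HEC tumour, 3 of 12 in BEC tumour, 11 of 23 between normal HECs and BECs, 3 of 9 between tumour HECs and BECs and 6 of 17 in the interaction. By adjusted p alone, without a fold limit, higher and lower members numbered 5 and 27 in EO771, 7 and 18 in HEC tumour, 16 and 13 in BEC tumour, 32 and 8 in HEC normal over BEC normal, 17 and 14 in HEC tumour over BEC tumour, and 11 and 22 in the interaction. Tested against a log2 fold change of 1, HEC tumour kept 0 higher and 2 lower, BEC tumour 2 lower, HEC normal over BEC normal 11 higher, HEC tumour over BEC tumour 2 higher, and the interaction 2 higher and 6 lower. With a mean of at least 50, 2 were higher in BEC tumour, 11 in HEC normal over BEC normal and 3 in HEC tumour over BEC tumour, with 2 lower there, since fewer members were tested. Values divided by the step gave 2 higher in BEC tumour, and 3 higher and 2 lower in HEC tumour over BEC tumour. They gave 12 higher in HEC normal over BEC normal, against 18 in the main fit. In the interaction they gave 9 lower, against 12. Members then fell under the filter, since a mean of 10 undivided endothelial units stands for fewer reads than a mean of 10 in EO771. Without a filter 2 were higher and 18 lower in EO771.

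With 1 library left out, higher members numbered 0 to 1 and lower ones 16 to 18 in EO771, 1 to 3 and 7 to 9 in HEC tumour, 5 to 8 and 4 to 6 in BEC tumour, 16 to 18 and 5 to 6 in HEC normal over BEC normal, 4 to 6 and 3 to 5 in HEC tumour over BEC tumour, and 4 to 6 and 11 to 14 in the interaction. Only Trim66 stayed higher in HEC tumour without HEC normal replicate 2 or HEC tumour replicate 1. The replicate block changed no call of members in EO771 (0 higher, 16 lower). In endothelium same-numbered libraries correlated at -0.03 to 0.13 and share only a number: with the block 3 members were higher and 7 lower in HEC tumour, 7 and 6 in BEC tumour, 18 and 6 in HEC normal over BEC normal, 5 and 4 in HEC tumour over BEC tumour, and 6 and 12 in the interaction. Members with few reads, such as Trim10, Trim40, Trim43a and Trim71, are limited by depth.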
